A study of Mus musculus with 4 samples.

Results

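The genes described here are 10 genes of antigen presentation by MHC class II, chosen by name, of 14323 gene symbols measured by RNA-seq in mouse blood progenitor colonies. They are the class II chain genes H2-Aa, H2-Ab1 and H2-Eb1, the peptide-loading genes H2-DMa, H2-DMb1 and H2-DMb2, the invariant chain gene Cd74, the regulator Ciita, the costimulatory ligand gene Cd86 and the integrin gene Itgax. All 10 were in the table, and all 10 passed the expression filter, a mean level of 1 or more normalized counts, as did 11370 genes in all.

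The colonies grew from cells of C57BL/6 mice that can be made to express MLL-ENL, a leukaemia fusion of Kmt2a and Mllt1. Starting cells were short-term haematopoietic stem cells (ST-HSCs) or MPP2 cells, multipotent progenitors with a bias to the megakaryocyte and red cell lineages. For 5 to 7 days, 100 cells grew in 1 ml of 1% methylcellulose supplied with the cytokines IL-3, IL-6, GM-CSF and SCF. One culture of each cell type held 0.05 µM 4-hydroxytamoxifen (4OHT), the agent that switches the fusion on and is labelled MLL-ENL, and the other held the same amount of ethanol and is labelled control. Each of the 4 combinations therefore had 1 library, of 12907412 to 14317891 reads, and neither sex nor age, the number of mice, nor what drives the fusion is given in the sources used here. No culture without the inducible fusion received 4OHT, so effects of 4OHT itself and of MLL-ENL cannot be told apart. With no replicates, a difference between a pair of libraries carries no p-value, and intervals given for such ratios are exact 95% intervals for counting error alone. The libraries come from mixed colony cells, so more cells of a type and more RNA per cell cannot be told apart in any value below. Among markers of the starting cells, Slamf1 (CD150, a marker of MPP2 cells) had 0 reads in both ST-HSC libraries and stood at 3.17 and 2.49 normalized counts in the MPP2 libraries with ethanol and 4OHT.

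MHC class II molecules are pairs of an alpha and a beta chain that show peptides from engulfed material to helper T cells. Newly made pairs are held by the invariant chain CD74, which proteases trim away, and the H2-DM heterodimer then helps peptide replace the remaining fragment. The coactivator CIITA binds no DNA itself and switches class II genes on through factors sitting on a conserved promoter module of an X box and a CCAAT-containing Y box. Dendritic cells, B cells and activated macrophages are the usual class II cells among blood cells. In C57BL/6 mice a promoter deletion silences the alpha chain gene that would pair with H2-Eb1, so its protein does not reach the surface as the usual pair.

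The promoter module is shown because CIITA, itself one of the genes described, acts through it. RefSeq windows (GRCm38.p6), reaching from 250 bases before to 50 after a start, were held for 6 of the 10 genes, namely H2-Aa, H2-Eb1, H2-DMa, H2-DMb1, H2-DMb2 and Itgax. The 130 bases before the start of H2-Aa (chr17:34287824-34287953, minus strand) and H2-Eb1 (chr17:34305737-34305866, plus strand) follow, 5′ to 3′. Capitals mark AACNNATGATGC (an X box form), TGACGTCA (a cyclic AMP response element) and ATTGG or its reverse complement CCAAT.
H2-Aa: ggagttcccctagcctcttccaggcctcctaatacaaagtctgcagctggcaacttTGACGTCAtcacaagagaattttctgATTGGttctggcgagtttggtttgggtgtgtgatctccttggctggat
H2-Eb1: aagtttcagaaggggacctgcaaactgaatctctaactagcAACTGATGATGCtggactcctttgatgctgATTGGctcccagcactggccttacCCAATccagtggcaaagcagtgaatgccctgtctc

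The same 27 bases around the X box form follow for the 4 genes that gave its letters. These stretches share those letters by construction. They lie at chr17:34305770-34305796 in H2-Eb1, chr17:34153091-34153117 in H2-DMb1, chr17:34145120-34145146 in H2-DMb2 and chr17:34238812-34238838 in H2-Ob, a related class II gene that did not pass the filter, all on the plus strand.
H2-Eb1: taactagcAACTGATGATGCtggactc
H2-DMb1: tacctagtAACTGATGATGCtaggctg
H2-DMb2: tacctattAACCGATGATGCtaggcta
H2-Ob: tgcctagcAACAAATGATGCaaagtct

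In H2-Eb1 the X box form began 89 bases before the start and ATTGG 59 bases before it. The positions were 92 and 61 in H2-DMb1, 121 and 90 in H2-DMb2, and 85 and 57 in H2-Ob. H2-Aa had no AACNNATGATGC in its window and had TGACGTCA 74 bases and ATTGG 48 bases before the start. Itgax had ATTGG alone, 178 bases before the start, and of the 2 windows of H2-DMa 1 had ATTGG alone. On either strand, AACNNATGATGC was in 13 of 32851 windows (0.0396%), TGACGTCA in 588 (1.79%) and ATTGG in 12289 (37.4%). AACNNATGATGC followed within 40 bases by ATTGG was in 4 windows (0.0122%), those of H2-Eb1, H2-DMb1, H2-DMb2 and H2-Ob. The X box letters are the longest word these 4 windows share, with the consensus of the 5 bases before it, so these 4 hold it by construction and the counts test nothing.

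Apart from Itgax and H2-DMb2, the genes were highest in ST-HSC cultures with 4OHT and lowest in MPP2 cultures with ethanol. Of the 10 genes, 9 stood higher with 4OHT in both cell types, as did 30.4% of all tested genes. By cell type, 9 stood lower in MPP2 than in ST-HSC cultures under either treatment, and 1 stood higher, against 46.0% of all tested genes with ethanol and 48.2% under 4OHT. Itgax was the exception to the cell type difference, and H2-DMb2 to the 4OHT difference. Summed over the 10 genes, levels were 261 normalized counts in ST-HSC with ethanol, 390.2 in ST-HSC with 4OHT, 117 in MPP2 with ethanol and 252 in MPP2 with 4OHT. A normalized count is the authors' scaled read count per gene, and 1 read was worth 0.0695 to 0.0802 of them. From high to low, the order ST-HSC 4OHT, ST-HSC ethanol, MPP2 4OHT, MPP2 ethanol held for 7 of the 10 genes, and for 10.7% of all tested genes. Some of these steps lay within counting error. H2-DMb1 had 13.560 in ST-HSC with ethanol and 13.558 in MPP2 with 4OHT, and the 4OHT intervals of Cd86 include no change.

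**Figure D1:**
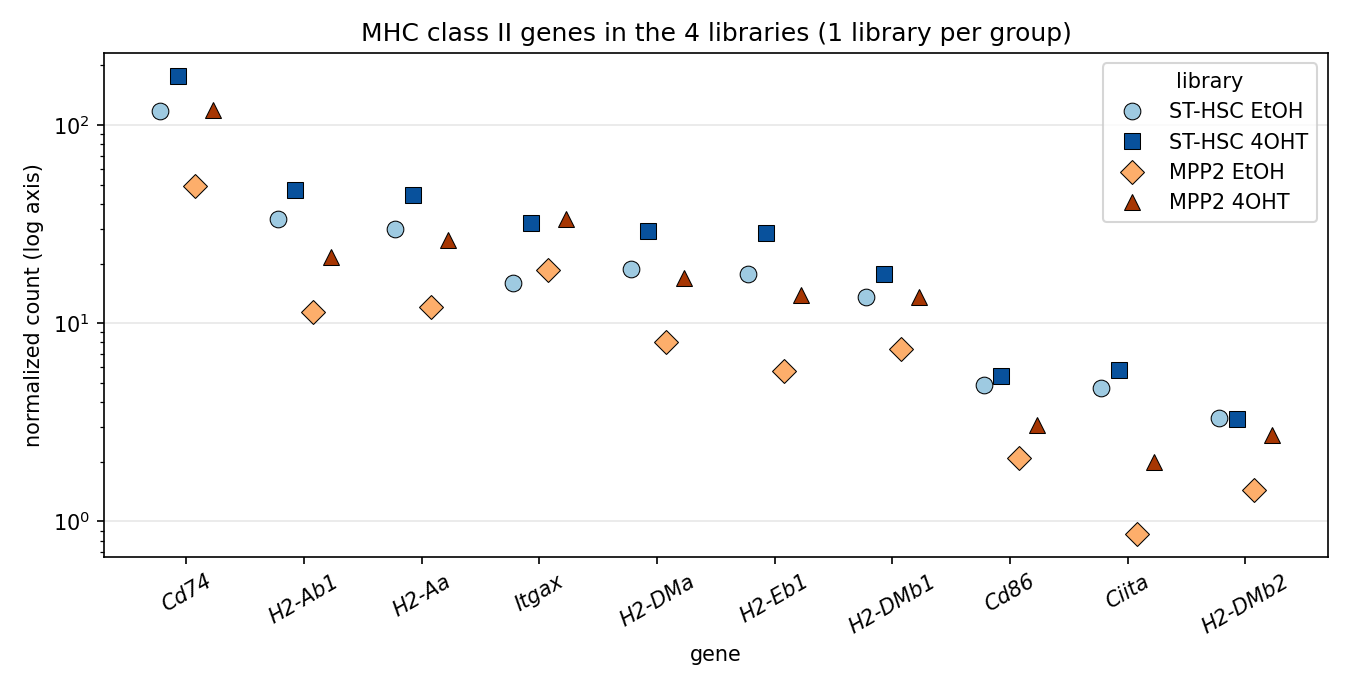
Normalized counts (log axis) of the 10 genes, sorted by mean level, with 1 point per library. MPP2 with ethanol gives the lowest point for every gene but Itgax, where ST-HSC with ethanol is lowest at 16.0.

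Ciita, the master regulator of class II transcription, lies at chromosome 16, 10480059 to 10528418 (GRCm38), and was the least abundant of the 10 genes per kilobase of transcript. It had 68 reads in ST-HSC with ethanol, 81 in ST-HSC with 4OHT, 12 in MPP2 with ethanol and 25 in MPP2 with 4OHT, or 4.73, 5.82, 0.866 and 2.01 normalized counts. The MPP2 libraries were both below the ST-HSC libraries. Its ethanol level was 5.46-fold higher in ST-HSC than in MPP2 cultures (95% counting interval 2.93 to 11.1), and its 4OHT level 2.90-fold higher (1.83 to 4.74). With 4OHT against ethanol, the ratio was 2.32 in MPP2 (1.12 to 5.06) and 1.23 in ST-HSC cultures (0.881 to 1.73), where the interval includes 1. Ciita overlaps Dexi, on the opposite strand, and how the authors' counting used strand is not given in the sources used here.

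The chain genes H2-Aa, H2-Ab1 and H2-Eb1 lie side by side on chromosome 17, H2-Ab1 at 34257689 to 34269419 and H2-Eb1 at 34305867 to 34316674 on the plus strand, with H2-Aa between them at 34282744 to 34287823 on the minus strand (GRCm38). H2-Aa, the alpha chain of I-A, had 29.9 normalized counts in ST-HSC with ethanol, 44.2 with 4OHT, 12.1 in MPP2 with ethanol and 26.4 with 4OHT. Its partner beta chain H2-Ab1 had 33.4, 47.1, 11.4 and 21.5 in the same order of libraries. H2-Eb1, the beta chain of I-E, had 17.8, 28.5, 5.77 and 13.8. All 3 genes had the same order of libraries, and in each the MPP2 library with 4OHT was below the ST-HSC library with ethanol.

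With 4OHT, H2-Aa was 1.48 times its ethanol level in ST-HSC (1.30 to 1.68) and 2.18 times in MPP2 cultures (1.80 to 2.64). H2-Ab1 was 1.41 times (1.25 to 1.59) and 1.89 times (1.54 to 2.31) its ethanol level. For H2-Eb1 the ratios were 1.60 (1.36 to 1.88) and 2.39 (1.82 to 3.16). The H2-Aa intervals of the 2 cell types do not overlap, whereas those of H2-Ab1 and H2-Eb1 do. By cell type the largest ratio of these 3 genes was that of H2-Eb1, with 3.08 times as much in ST-HSC as in MPP2 cultures with ethanol (2.39 to 4.02), and H2-Ab1 followed with 2.93 (2.44 to 3.53).

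Cd74, which encodes the invariant chain that guides and guards new class II pairs, was the most abundant of the 10 genes, on chromosome 18 at 60803848 to 60812652. It had 118 normalized counts in ST-HSC with ethanol, 177 in ST-HSC with 4OHT, 49.5 in MPP2 with ethanol and 118 in MPP2 with 4OHT, from 686 to 2461 reads. MPP2 cultures with 4OHT and ST-HSC cultures with ethanol stood level. The 4OHT to ethanol ratio was 1.495 in ST-HSC (1.41 to 1.59) and 2.39 in MPP2 cultures (2.18 to 2.62). These intervals lie apart, so the difference between the cell types was larger than counting error in these libraries, and variation between cultures could not be measured.

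H2-DMa and H2-DMb1 encode the alpha and beta chains of H2-DM, the catalyst of peptide exchange, and lie with H2-DMb2 on the plus strand of the same region. Their spans are 34119541 to 34139101 for H2-DMa, 34143307 to 34151555 for H2-DMb2 and 34153072 to 34160230 for H2-DMb1. Over ethanol then 4OHT in ST-HSC, followed by ethanol then 4OHT in MPP2 cultures, H2-DMa had 18.8, 29.2, 8.01 and 16.9 normalized counts. H2-DMb1 had 13.6, 17.7, 7.43 and 13.6, so its ST-HSC ethanol and MPP2 4OHT libraries were alike. H2-DMb2, a second beta chain gene, was read less often, with 48, 46, 20 and 34 reads. It was the gene with the least 4OHT difference in ST-HSC cultures (ratio 0.990, 0.646 to 1.52).

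For H2-DMa the 4OHT ratio was 1.55 in ST-HSC (1.33 to 1.82) and 2.11 in MPP2 cultures (1.67 to 2.68). For H2-DMb1 it was 1.30 (1.08 to 1.58) and 1.82 (1.42 to 2.35). H2-DMb1 and H2-DMb2 share 31.4% and 36.6% of their 31-base words with other genes, chiefly with each other, so the split of reads between them is uncertain. Summed, the pair had a 4OHT ratio of 1.24 in ST-HSC (1.04 to 1.48) and 1.84 in MPP2 cultures (1.46 to 2.31). H2-DMa overlaps the gene Brd2 on the opposite strand and shares 9.23% of its words with other genes, chiefly Brd2. Brd2 was at 269, 267, 245 and 274 normalized counts and did not follow the order of H2-DMa.

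Cd86 encodes a ligand of CD28 and CTLA-4, the costimulatory and inhibitory receptors of T cells, and lies on chromosome 16 at 36603869 to 36666081. It had 70 and 75 reads in ST-HSC with ethanol and 4OHT and 29 and 38 in MPP2, so both MPP2 libraries were lower. Its 4OHT ratios were 1.11 in ST-HSC (0.789 to 1.56) and 1.46 in MPP2 cultures (0.875 to 2.45), and both intervals include 1. Its ethanol level was 2.33 times as high in ST-HSC as in MPP2 cultures (1.49 to 3.72).

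Itgax encodes CD11c, the integrin alpha chain used to mark dendritic cells and also carried by some macrophages, on chromosome 7 at 128129547 to 128150657. It had 16.0 normalized counts in ST-HSC with ethanol, 32.1 in ST-HSC with 4OHT, 18.5 in MPP2 with ethanol and 33.7 in MPP2 with 4OHT. The 4OHT libraries were both above the ethanol libraries, and the cell types were close to each other. The 4OHT ratio was 2.01 in ST-HSC (1.71 to 2.37) and 1.82 in MPP2 cultures (1.56 to 2.14). MPP2 against ST-HSC cultures gave 1.15 with ethanol (0.963 to 1.39) and 1.05 with 4OHT (0.916 to 1.20). Itgax shares 10.7% of its words with other genes, chiefly Itgad, which had at most 0.160 normalized counts in any library.

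**Figure D2:**
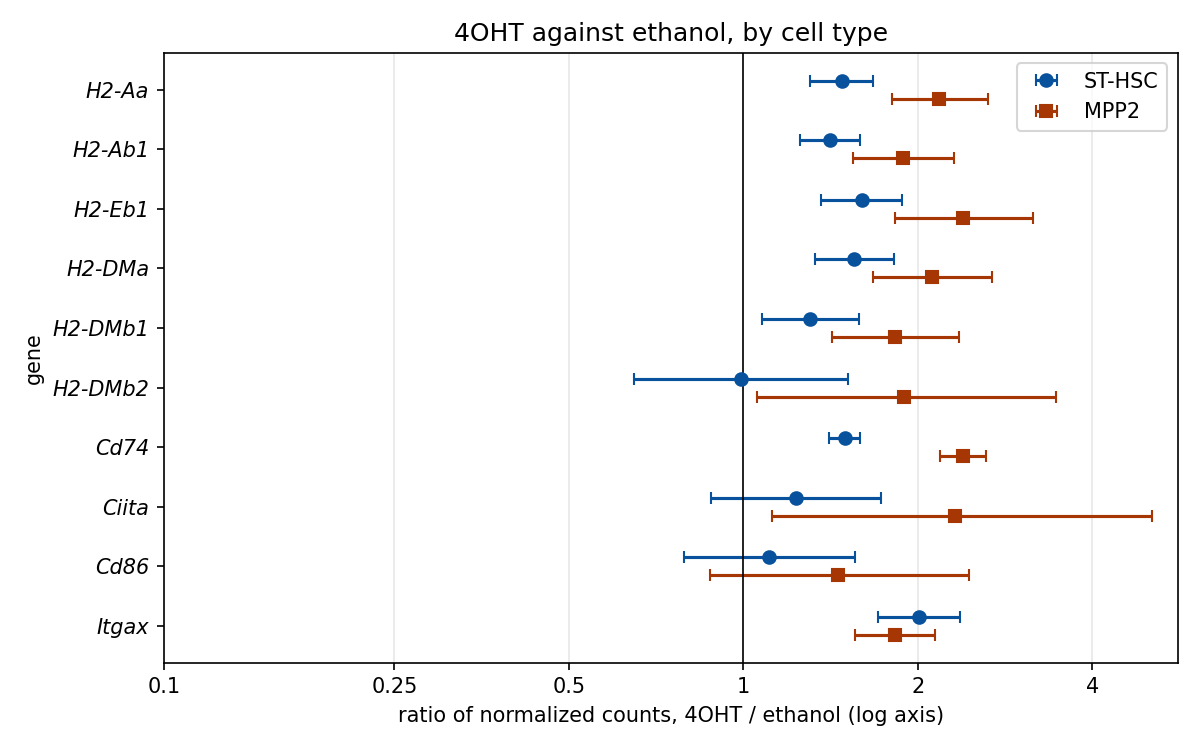
Ratio of normalized counts, 4OHT to ethanol (log axis), for each gene in ST-HSC and MPP2 cultures, with bars for exact 95% counting intervals. MPP2 points lie to the right of ST-HSC points for every gene but Itgax, and H2-DMb2 in ST-HSC cultures lies at 0.990.

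On the log2 scale, after adding 0.5 to each normalized count, the median 4OHT difference over the 10 genes was 0.52 in ST-HSC and 0.88 in MPP2 cultures. The medians over all tested genes were -0.0037 and -0.0024. At least 2-fold higher with 4OHT in MPP2 cultures were H2-Aa, H2-Eb1, H2-DMa and Cd74, 4 of 10 genes, against 1.32% of all tested genes. In ST-HSC cultures 0 of 10 reached 2-fold, against 2.10% of all tested genes, and Itgax came nearest at 0.98. None of the 10 was 2-fold lower with 4OHT in either cell type, against 0.545% of all tested genes in ST-HSC and 1.70% in MPP2 cultures. A log2 difference above 0 was found for 9 of 10 in ST-HSC, against 49.3%, and for 10 of 10 in MPP2 cultures, against 49.7%. The log2 4OHT difference was larger in MPP2 than in ST-HSC cultures for 9 of 10 genes, against 48.3% of all tested genes. The excess was largest for H2-DMb2 (0.74) and Cd74 (0.67), and Itgax had -0.13. This difference between the cell types was not tested, since no degree of freedom remains for it.

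An effect of 4OHT shared by both cell types can be tested, since a model with one term for treatment and one for cell type leaves 1 residual degree of freedom over the 4 libraries. That degree of freedom is the difference of the 4OHT effect between the cell types. The standard errors and p-values, here and by cell type below, therefore do not measure variation between replicate cultures. With limma, 0 of the 10 genes passed an adjusted p of 0.05 (Benjamini-Hochberg over 11370 genes), against 0.0440% of all tested genes called higher and 0.00880% called lower. At an unadjusted p under 0.05 limma had 8 of the 10, against 14.2% of all tested genes. Cd74 had a shared log2 difference of 0.91 ± 0.20 (SE) with a limma adjusted p of 0.163, and Itgax 0.92 ± 0.13 with 0.0921. H2-Eb1 had 0.93 ± 0.17 with a limma adjusted p of 0.129, and Ciita 0.57 ± 0.19 with 0.278.

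With edgeR's quasi-likelihood test on the recovered reads, 6 of the 10 genes passed and were higher, against 2.47% of all tested genes, and 0 were lower, against 1.86%. They were H2-Aa, H2-Ab1, H2-Eb1, H2-DMa, Cd74 and Itgax, with edgeR adjusted p from 0.00319 for Itgax to 0.0225 for H2-Ab1. H2-DMb1 missed the threshold with an edgeR adjusted p of 0.104, and H2-DMb2, Ciita and Cd86, the genes with fewest reads, lay between 0.411 and 0.653. Whether the 4OHT effect on class II genes passes the threshold thus depends on the test.

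By cell type more of the genes passed the tests. In MPP2 against ST-HSC cultures with ethanol, 7 of 10 genes were at least 2-fold lower, against 0.862% of all tested genes. They were H2-Aa, H2-Ab1, H2-Eb1, H2-DMa, Cd74, Ciita and Cd86. Under 4OHT 3 of 10 were, against 1.71%, namely H2-Ab1, H2-Eb1 and Ciita. None was 2-fold higher in MPP2 cultures, against 6.27% of all tested genes with ethanol and 5.39% under 4OHT. The median log2 difference over the 10 genes was -1.22 with ethanol and -0.73 under 4OHT, while all tested genes had -0.036 and -0.024.

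In the additive limma fit the same 7 genes as in ethanol were lower in MPP2 cultures at an adjusted p of 0.05, against 5.31% of all tested genes called lower, and 0 were higher, against 9.88%. At an unadjusted p under 0.05 limma had 9 of the 10, against 37.7%, and edgeR called 8 lower and 0 higher, against 14.0% and 16.5%. Ciita had the largest shared difference, -1.64 ± 0.19 on the log2 scale (limma adjusted p = 0.0135). H2-Ab1 had -1.31 ± 0.15 (limma adjusted p = 0.0149) and H2-Eb1 -1.28 ± 0.17 (limma adjusted p = 0.0196). H2-Aa, H2-DMa, Cd86 and Cd74 had -1.001, -0.98, -0.89 and -0.91, with limma adjusted p from 0.0272 to 0.0444. H2-DMb1 had -0.60 with a limma adjusted p of 0.0680 and passed with edgeR (adjusted p = 0.0334). H2-DMb2 had -0.61 and missed with limma and edgeR alike (adjusted p 0.105 and 0.150), and Itgax had 0.13 with a limma adjusted p of 0.481. Of the 7 calls, 3 were left with no expression filter and 0 when treatment was dropped from the model.

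**Figure D3:**
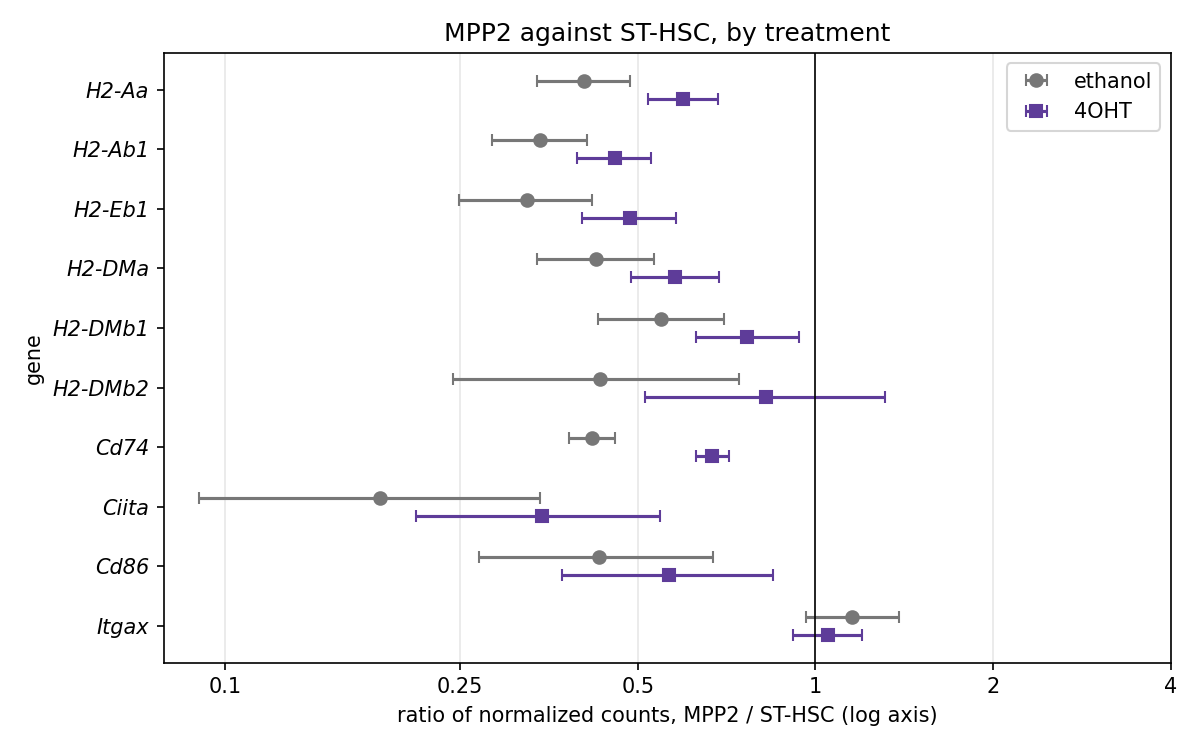
Ratio of normalized counts, MPP2 to ST-HSC (log axis), for each gene with ethanol and with 4OHT, with bars for exact 95% counting intervals. Ciita lies furthest left, at 0.183 with ethanol, and Itgax alone lies right of 1.

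Ratios between genes within a library do not depend on how libraries were scaled to each other. Per kilobase of the longest coding transcript, H2-Aa was 31.6% of Cd74 in ST-HSC with ethanol (28.4 to 35.1), 31.2% with 4OHT (28.5 to 34.1), 30.6% in MPP2 with ethanol (25.7 to 36.3) and 27.9% with 4OHT (24.7 to 31.4). H2-DMa was 11.2%, 11.6%, 11.4% and 10.1% of Cd74. These genes thus kept nearly one proportion to Cd74 in all 4 libraries, with overlapping counting intervals, although Cd74 itself ranged from 49.5 to 177 normalized counts.

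Other proportions differed between libraries. H2-Ab1 was 32.8% of Cd74 per kilobase in ST-HSC with ethanol (29.6 to 36.4) and 21.1% in MPP2 with 4OHT (18.5 to 24.1). H2-Eb1 was 12.7% and 13.6% in the ST-HSC libraries and 9.85% in each MPP2 library, with intervals that overlap in part. Ciita was 0.938% and 0.773% of Cd74 in the ST-HSC libraries, and 0.411% (0.211 to 0.722) and 0.398% (0.257 to 0.590) in the MPP2 libraries with ethanol and 4OHT. The interval of ST-HSC with ethanol was 0.725 to 1.20, above both MPP2 intervals, and that of ST-HSC with 4OHT, 0.611 to 0.964, overlapped the MPP2 ethanol interval. Itgax went the other way, at 4.71% and 6.33% in the ST-HSC and 13.0% and 9.92% in the MPP2 libraries. H2-DMb1 was 11.5% and 10.0% in the ST-HSC and 15.1% and 11.5% in the MPP2 libraries. Its interval in MPP2 with ethanol, 12.1 to 18.6, lay above that of ST-HSC with 4OHT, 8.77 to 11.4. It overlapped that of ST-HSC with ethanol, 9.88 to 13.4.

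**Figure D4:**
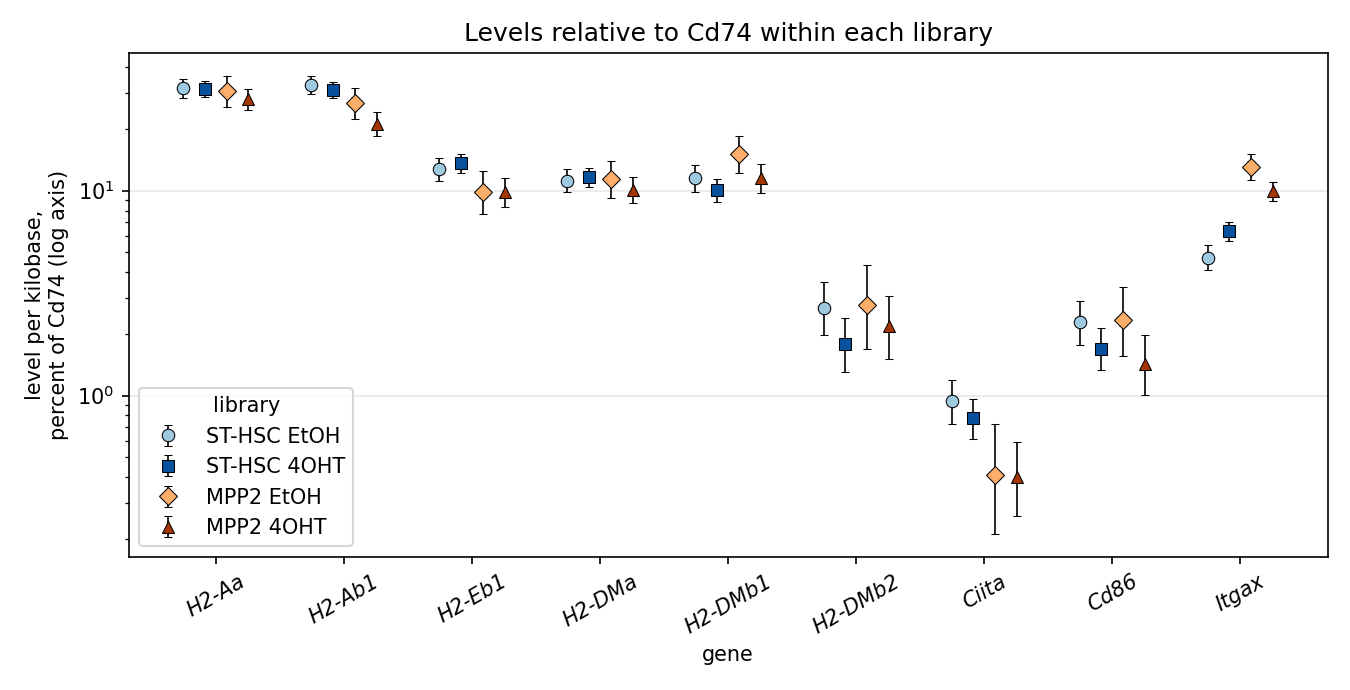
Level per kilobase of 9 genes as a percent of Cd74 in the same library (log axis), with exact 95% counting intervals. H2-Aa and H2-DMa keep one level across libraries, Ciita is lower and Itgax higher in the MPP2 libraries.

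The H2 genes described lie in the class II interval of chromosome 17 (H2-Oa to H2-Eb2, 34092340 to 34341412, GRCm38), which holds 13 genes of the table. Genes between them have other roles. Tap1, a subunit of the peptide transporter for class I, stood higher with 4OHT (log2 0.77 in ST-HSC and 0.62 in MPP2 cultures), with an edgeR adjusted p of 0.00702 and a limma adjusted p of 0.131, but was level by cell type in ethanol (0.07). Its partner Tap2 had 4OHT differences of -0.05 and 0.23. The immunoproteasome genes Psmb8 and Psmb9 had 0.31 and 0.29 in ST-HSC and -0.03 and 0.14 in MPP2 cultures. Psmb9 had 10.71, 13.22, 9.67 and 10.67 normalized counts, the library order of H2-Aa. The steps were small, with ST-HSC ethanol and MPP2 4OHT nearly level and 134 and 133 reads in the MPP2 libraries. Psmb8 had 50.8, 63.2, 38.4 and 37.7, lower in both MPP2 libraries. Brd2, a chromatin reader, had -0.01 and 0.16. H2-Oa, the alpha chain of the H2-DM inhibitor H2-O, had 2.92, 3.81, 5.63 and 4.73 normalized counts, lowest in ST-HSC with ethanol. The neighbours thus did not all share the pattern of the class II genes, though Psmb9 shared its library order and Psmb8 its cell type direction.

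**Figure D5:**
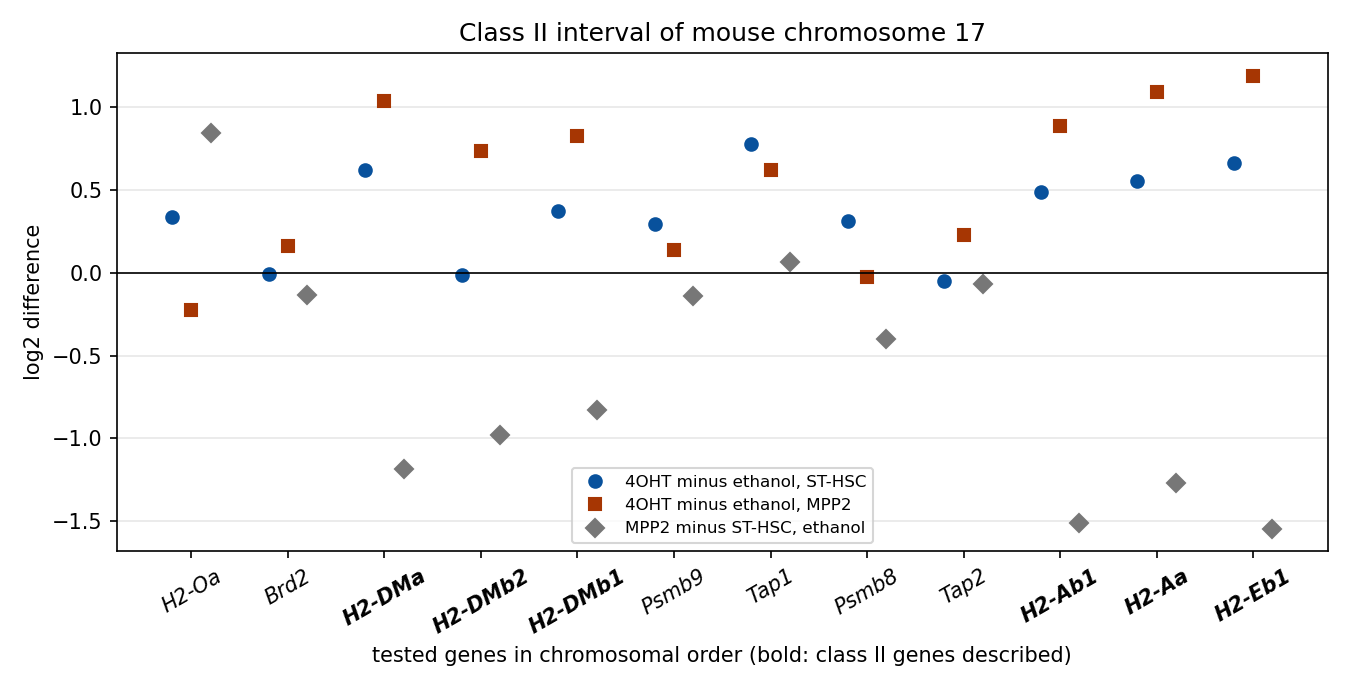
Log2 differences of the 12 tested genes of the class II interval in chromosomal order, for 4OHT in each cell type and for MPP2 against ST-HSC with ethanol. The class II genes in bold lie between -0.83 and -1.54 by cell type, and H2-Oa lies at 0.84.

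The genes for the factors that sit on the class II promoter stayed within 2-fold in every pair. RFX5, RFXAP and RFXANK bind the X box, NF-Y binds the CCAAT box and CREB1 binds the neighbouring element. Of 8 genes for these factors and their partners, 0 were 2-fold apart in any pair, and 0 passed for 4OHT with limma or edgeR. Over the pairs, 1.32% to 6.27% of all tested genes were 2-fold higher and 0.545% to 1.71% lower. For 4OHT limma called 0.0440% higher and 0.00880% lower, and edgeR 2.47% and 1.86%. With shares this low, 0 of 8 says little about these genes. By cell type edgeR called 1 higher and 1 lower in MPP2 cultures, against 16.5% and 14.0% of all tested genes. There limma called 0, against 9.88% and 5.31%. Creb1, the most abundant of the list, had 95.1, 80.6, 76.5 and 59.8 normalized counts. The list had median 4OHT differences of -0.04 and 0.11.

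The list of proteases that prepare peptide and trim the invariant chain, with the thiol reductase gene Ifi30 and the cathepsin inhibitor gene Cst3, had median log2 differences of 0.48 and 0.44 with 4OHT in ST-HSC and MPP2 cultures, and of 0.46 and 0.18 in MPP2 against ST-HSC with ethanol and 4OHT. Of 11 genes, edgeR called 6 higher with 4OHT and 0 lower, against 2.47% and 1.86% of all tested genes. There limma called 0, against 0.0440% and 0.00880%. By cell type limma called 3 higher and 0 lower in MPP2 cultures, against 9.88% and 5.31%. Ctss, cathepsin S, the main trimming enzyme of the invariant chain in antigen-presenting cells, had 43.7 and 110 normalized counts in ST-HSC with ethanol and 4OHT, and 94.2 and 123 in MPP2. Lgmn, an asparagine endopeptidase, had 9.53, 26.5, 18.9 and 37.2. Ctsd, cathepsin D, was the most abundant and reached 2656 in MPP2 with 4OHT. Ctse, cathepsin E, was low, at 0.278, 0.575, 2.53 and 2.01. Of the 11 genes, 8 were lowest in ST-HSC cultures with ethanol, these 4 included. Ctsz, cathepsin Z (347, 483, 280 and 404), and Cst3 (192, 245, 130.2 and 177) were lowest in MPP2 cultures with ethanol, as most class II genes were, and Ifi30 in MPP2 cultures with 4OHT. Cst3 had the library order of H2-Aa.

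Genes that ubiquitinate or accompany class II, 6 tested, had 0 calls for 4OHT with limma or edgeR. Of all tested genes, limma called 0.0440% higher and 0.00880% lower with 4OHT, and edgeR 2.47% and 1.86%. Among them the tetraspanin gene Cd9 had 96.9 and 150.1 in ST-HSC and 260 and 291 in MPP2 cultures, and Cd63 was the most abundant at 368 to 475. Of 5 tested costimulation and checkpoint ligands 0 were called for 4OHT, and limma called 2 higher in MPP2 cultures, against 9.88% of all tested genes. Cd80, the other CD28 ligand, had 3.06 and 7.11 in ST-HSC and 5.70 and 6.42 in MPP2 cultures. Cd274 (PD-L1) had 18.6, 33.8, 42.1 and 44.9, and Pdcd1lg2 (PD-L2) 7.02, 5.10, 17.4 and 13.3. Cd86 was thus lower in MPP2 cultures while these ligands stood higher there with ethanol.

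Interferon gamma is a classic inducer of Ciita. Of 10 tested genes of its signalling and response, edgeR called 2 higher with 4OHT and limma 0, against 2.47% and 0.0440% of all tested genes. By cell type edgeR called 4 of the 10 higher and 0 lower in MPP2 cultures, against 16.5% and 14.0%. There limma called 1 higher and 0 lower, against 9.88% and 5.31%. Jak1, the most abundant, had 225 to 315 normalized counts and 4OHT differences of -0.11 and -0.06. Irf1, a transcription factor that acts on Ciita, had 17.7, 19.98, 19.99 and 39.1 normalized counts. It stood 0.17 higher with 4OHT in ST-HSC cultures and 0.95 higher in MPP2, on the log2 scale. Under 4OHT, Irf1 was thus higher in MPP2 than in ST-HSC cultures, whereas Ciita was lower there. The response genes Gbp2 (1.60, 5.61, 1.59 and 4.41) and Cxcl10 (3.89, 14.3, 5.05 and 12.0) followed treatment rather than cell type, as Itgax did. Socs1, a feedback inhibitor, had 15.8, 23.7, 32.4 and 43.4. Among integrins related to CD11c, the 3 of the list that were tested were Itgb2, Itgam and Itgal, the CD18, CD11b and CD11a chains. All 3 were at least 2-fold higher in MPP2 than in ST-HSC cultures under 4OHT, against 5.39% of all tested genes. Their 4OHT differences lay between -0.30 and 0.32. Icam1, a ligand of some of them and the other gene tested, had 25.7, 52.7, 34.1 and 63.3 (edgeR adjusted p for 4OHT 0.00116, limma 0.0921).

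Genes with the most similar profile were found by the distance between log2 profiles centred over the 4 libraries, among 8160 genes whose mean level was 10 or more. Nearest to the mean of H2-Aa, H2-Ab1 and H2-Eb1 were Il6st (distance 0.14), Rab3il1 (0.23), Spint1 (0.25), Gria3 (0.34) and Irf8 (0.38). For comparison, H2-DMa lay at 0.22, Cd74 at 0.32, Ciita at 0.50 and Itgax at 1.37. Nearest to Cd74 were Rab3il1 (0.26), Spint1 (0.27), Col4a2 (0.28), Gria3 (0.31) and Soga1 (0.33), while H2-Aa lay at 0.14. Il6st encodes gp130, the signalling chain of the IL-6 receptor, and had 30.8, 50.2, 11.8 and 22.8 normalized counts. Irf8, which directs monocyte and dendritic cell fate, had 25.7, 42.1, 7.65 and 15.3. By distance to Cd74, Irf8 ranked 53 (0.68). A profile over 4 libraries is a short description, and many genes can share one.

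The libraries also differed in markers of the cells that could carry these genes. Summed over the 13 monocyte and macrophage markers in the table, of 14 listed, levels were 2310 and 3397 normalized counts in ST-HSC with ethanol and 4OHT, and 2982 and 4399 in MPP2. Lyz2, the lysozyme gene, made up most of the sum and of its differences, and without it the sums were 1197, 1473, 1290 and 1631. The median log2 4OHT difference of the 10 tested markers was 0.69 in ST-HSC and 0.67 in MPP2 cultures, and their median by cell type was 0.11 with ethanol and 0.22 under 4OHT. By cell type the markers were mixed. With ethanol 7 of the 10 tested markers stood higher in MPP2 than in ST-HSC cultures, against 46.0% of all tested genes. Under 4OHT 8 did, against 48.2%. Among them, Cd68 had 48.0 in ST-HSC and 86.4 in MPP2 cultures with ethanol, and Cd14 had 50.3 and 98.3. Lower in MPP2 cultures with ethanol were Ccr2, Fcgr1 and Csf1r. Ccr2, a monocyte chemokine receptor gene, had 34.4 and 53.5 normalized counts in ST-HSC and 21.1 and 12.3 in MPP2 cultures with ethanol and 4OHT, and Fcgr1, an Fc receptor gene, had 21.7, 31.8, 16.1 and 33.2. Csf1r, the M-CSF receptor gene, had 67.0, 129.6, 54.2 and 128. Of 18 dendritic cell markers 16 were measured, 8 of them above the filter, and their summed levels were 56.7, 71.6, 36.4 and 41.3, of which Irf8 was the largest part in ST-HSC cultures. Without Irf8 the sums were 30.9, 29.5, 28.8 and 26.0. Irf4, another transcription factor gene of the list, had 4.45 and 1.80 in ST-HSC and 8.66 and 3.61 in MPP2 cultures, lower with 4OHT and higher in MPP2, the reverse of Irf8. Mgl2 (12.4, 12.8, 7.43 and 7.54) and Batf3 (1.53, 2.52, 0.794 and 1.04) had the library order of Irf8. For Mgl2 the 4OHT steps were small, at 179 and 178 reads in ST-HSC and 103 and 94 in MPP2 cultures. Batf3 had 11 and 13 reads in MPP2 cultures with ethanol and 4OHT. Itgae, Clec10a, Ccl17 and Ccl22, also tested, did not have this order. By cell type limma called 3 of the 8 tested markers lower and 1 higher in MPP2 cultures, against 5.31% and 9.88% of all tested genes. The defining genes Flt3 and Zbtb46 had at most 12 and 5 reads in any library, and Clec9a at most 0.505 normalized counts.

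Of 7 B cell markers 3 were in the table, with summed levels of 2.67 to 4.33, nearly all of it Cd79b at 1.52 to 2.50 and Cd22 at 0.626 to 2.33. Of 6 T cell markers 2 were in the table, summing to 0.722 to 0.882. Mast cell and basophil markers, 8 of 8 in the table, summed to 160.1 and 87.8 in ST-HSC with ethanol and 4OHT and to 1682 and 563 in MPP2. They ran opposite to class II genes in every pair of libraries that shares a cell type or a treatment. Eosinophil markers, 7 of 7 in the table, summed to 34.0, 31.5, 211 and 106. Neutrophil markers, 9 of 10, summed to 32473, 24249, 43800 and 42729. By cell type they were mixed. With ethanol 2 were at least 2-fold higher in MPP2 than in ST-HSC cultures and 3 lower, against 6.27% and 0.862% of all tested genes. The 2 higher were Ltf (1856 in ST-HSC and 4355 in MPP2) and Ngp (5839 and 12044). The 3 lower were Elane (1673 in ST-HSC and 794 in MPP2), Mpo (4549 and 1971) and Prtn3 (1798 and 876). At any size, 6 of the 9 stood higher in MPP2 cultures with ethanol, against 46.0% of all tested genes. The part of these cell mixtures in the class II differences was not tested.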

How the data were processed

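RNA was extracted from colony cells, and libraries were made from 200 ng with MGIEasy rRNA depletion and directional kits, per the labels' protocols. The mm10 build and the tools RSEM, Bowtie2, edgeR and Trimmomatic 0.36 appear, per the submitters' processing notes, with no order or role. The deposited values are a scaled signal, normalized counts per gene symbol, with 1 column per library. The share of values that came out whole was all 57292 of 57292, each within 1e-06 reads of a whole multiple of the smallest step of their column, so whole reads were recovered. The steps match reads scaled by total reads and a TMM factor. Genes with fewer than 4 summed reads are not listed.

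Tested genes had a mean of at least 1 normalized count, and 0.5 was added before log2. The fits were limma on an additive model, and edgeR quasi-likelihood on recovered reads as an alternative. Both were also run on simulated data with no cell type difference and the same dispersion for all genes. That run does not show how they perform on these libraries. Each group had 1 library, so p-values rest on the spread around the additive model. On the recovered reads edgeR called 492 genes for 4OHT and 3462 for cell type. Coordinates, lengths and shared 31-base words come from GENCODE M21 (GRCm38, the assembly of mm10), and promoters from RefSeq. The genes and the 16 other lists were chosen with earlier results of these data known. Named were the 10 genes, genes of the pathway and housekeeping lists that passed 2-fold in a pair or led their list by level, and the 5 nearest profiles. Cell type markers were summarised by list. Lyz2, Ccr2, Fcgr1, Irf4, Mgl2, Batf3, Elane, Mpo, Prtn3, Ctsz, Cst3, Ifi30, Csf1r, Flt3, Zbtb46, Clec9a, Irf1, Cd79b, Cd22, Slamf1 and the neighbours on chromosome 17 were named after their values were seen. So were Cd68, Cd14, Itgae, Clec10a, Ccl17, Ccl22, Ltf and Ngp. A housekeeping list of 10 genes had 4OHT medians of -0.0003 and -0.019, led by Actb. A stem and progenitor list summed to 139, 209, 179 and 182 normalized counts in library order. Fits used edgeR 4.0.16, limma 3.58.1 and DESeq2 1.42.0 (size factors) under R 4.3.3. Other steps used scipy 1.17.1, pandas 2.3.3 and numpy 2.4.6 under Python 3.11.15, with matplotlib 3.10.9 for plots.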

Additional observations from a re-analysis of the deposited data

Results flagged for a closer look

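Among listed genes other than the 10 described, 11 stood higher with 4OHT in one cell type and lower in the other, with 95% counting intervals clear of no change in both. With 1 library per group these differences between cell types were not tested. The MPP2 minus ST-HSC value was -0.37 for the protease gene Sppl2a, which clears invariant chain fragments, with 0.13 in ST-HSC and -0.24 in MPP2 cultures. For the integrin genes it was 0.28 for Itgam and 0.40 for Itgb2. The chemokine receptor gene Ccr2, a mark of monocytes, had -1.38, from 0.63 in ST-HSC to -0.76 in MPP2 cultures. The neutrophil granule genes had 0.51 for Elane, 0.40 for Mpo, 0.34 for Prtn3, 0.95 for Camp and 0.72 for Ltf. Of the stem and progenitor markers, Cd34 had -1.38 and Cd48 -1.16.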

How the results depend on the processing

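No paired analysis was possible because the groups share a single replicate number, so no replicate block could be fitted beside the cell type and treatment terms. Leaving out any library leaves no residual degrees of freedom. Of the 10 class II genes, those at least 2-fold apart with 4OHT in ST-HSC cultures went from 0 to 1 (Itgax) with an added constant of 0.1 and with total reads as the scaling. With a mean of at least 5, all genes at least 2-fold apart numbered 155 and 162 with 4OHT in ST-HSC and MPP2 cultures, and 461 and 483 by cell type with ethanol and 4OHT. For the shared 4OHT effect, class II genes called went from 0 to 5 with a mean of at least 5, and to 6 with limma's trend and robust options and with edgeR. All genes called were 6 as reported. They were 0 with a constant of 0.1, no filter, DESeq2 size factors, total reads, the GC trend removed or no cell type term, 92 with a constant of 1, 230 with a mean of at least 5, 523 with trend and robust limma and 492 with edgeR. By cell type, class II genes called went from 7 to 3 with no filter and to 0 with no treatment term. All genes called by cell type, 1727 as reported, were 852 with a constant of 0.1, 559 with no filter, 2719 with a mean of at least 5, 3656 with trend and robust limma, 264 with no treatment term and 3462 with edgeR. The cause of these moves was not tested. Cd74 in MPP2 cultures had a log2 4OHT difference of 1.07 with the GC trend removed, against 1.25. H2-DMb2 in ST-HSC cultures ranged over the settings from -0.04 to 0.01, and Itgax by cell type under 4OHT from -0.01 to 0.09, so neither has a settled direction. Summing H2-DMb1 and H2-DMb2 was chosen after seeing the data. Ciita and H2-DMb2, with 12 and 20 reads in MPP2 cultures with ethanol, are limited most by depth.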
